A study of Mus musculus with 4 samples.

Results

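The AP-1 and BATF transcription factors were followed in group 3 innate lymphoid cells (ILC3s) of mice, with and without the cytokine TL1A. The members were chosen by name and were Fos, Fosb, Fosl1, Fosl2, Jun, Junb, Jund, Batf, Batf3 and Atf3, that is 10 of the 24343 genes in the deposited table once transcript rows of a gene were summed. RNA-seq had been done on ILC3s from IL23R-GFP/WT mice, sorted for CD127 and GFP and against lineage markers. All 4 libraries therefore came from animals whose IL-23 receptor locus carried the GFP reporter on 1 allele only, and the sort kept cells that use this locus. In the first group the sorted cells were left in medium (2 libraries). The second group (2 libraries) received TL1A, the ligand of the TNF receptor family member DR3. The sources used here state no dose, duration, tissue of origin or age of the animals. Whether the libraries of a group stem from separate mice or wells is not labelled either. The p-values then reflect only the spread among these libraries, which may be technical.

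AP-1 is a family of dimers built from basic leucine zipper (bZIP) proteins, in which a zipper holds 2 chains together and a basic stretch grips DNA at the sequence TGANTCA or at the related cyclic AMP element TGACGTCA. Jun proteins pair with each other or with Fos proteins, whereas Fos proteins need a partner. BATF and BATF3 are short bZIP proteins that pair with Jun proteins and, in lymphocytes and dendritic cells, bind together with IRF4 or IRF8 at composite sites. Several of the genes are immediate early genes, transcribed within minutes of a stimulus and often only briefly.

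The libraries held 11495636 to 12605164 assigned reads. Transcripts that mark ILC3s were present in each library. Il7r, which encodes CD127, had 3552 and 3661 CPM in medium (reads per 1000000 reads of the effective library size). With TL1A it had 1209 and 1191 CPM. Il23r had 1007 and 995.5 CPM, then 663.3 and 631.9 CPM. Both were called lower, 3.01-fold and 1.55-fold. Of 16 ILC3 markers listed, 15 were tested, and 6 were called higher and 7 lower. That is 86.7% called, against 42.3% of all genes tested. Kit had 1 read in all over 2 deposited rows, whose shared reads were not counted, so this count sets no limit on its mRNA. Of other cell types, the B cell genes Ms4a1 and Pax5, with 1 row each, were at 0 reads throughout. Cd8a (T cells), Itgam (myeloid cells) and Eomes (NK cells) were also at 0, but each has 2 deposited rows, whose shared reads were not counted, so their 0 sets no limit. Other myeloid markers were detected, with Cd14 at 45.7 and 49.3 CPM in medium and 4.74 and 5.69 with TL1A, and Lyz2 at 15.3 and 19.4 CPM and then 7.53 and 14.6. The summed level of the 9 T cell markers was 125.5 to 141.3 CPM in medium and 105.9 to 122.1 with TL1A, nearly all of it from Lat, and that of the 11 myeloid markers was 91.4 to 106.5 and 44.5 to 53.5 CPM. The fall of the myeloid sum was carried mainly by Cd14. Of the 8 tested, Cd14 and Mpeg1 were called lower, Adgre1 was called higher (means of 8.62 and 16.1 CPM) and 5 did not pass. That is 37.5% called, against 42.3% of all genes tested. The 6 B cell markers summed to 153.8 to 166.9 and 777.3 to 849.4 CPM, carried by Blk and Cd79b. The markers of ILC1 and NK cells (7 listed) summed to 9.06 to 12.7 and 18.3 to 23.9 CPM, those of ILC2s (7 listed) to 64.3 to 74.7 and 150.2 to 163.9 CPM, and those of epithelial and stromal cells (7 listed) to 7.56 to 13.7 and 4.84 to 5.001 CPM. The rise of the ILC2 sum was carried mainly by Klrg1 (means of 27.6 and 134.7 CPM), while Il1rl1 and Il17rb were called lower, 5.19-fold and 2.84-fold. Il1rl1 has 3 deposited rows, so its value leaves out the reads that they share. In the ILC1 and NK list Gzmb was called higher (0.55 and 11.2 CPM), Prf1 went from 2.01 to 8.21 CPM without passing, and Gzma and Klrk1 were called lower. Red cell markers reached at most 0.159 CPM, the value of Alas2, which has 2 deposited rows. Reads shared by rows and reads with several alignments were not counted, so these values set no limit on red cell RNA. The part of other cells in the results was not tested, and in these bulk libraries a change in the number of cells that use a gene cannot be told apart from a change in RNA per cell.

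The promoters of the 2 members with the largest rise and the 2 that fell are shown because the results turn on them. RefSeq holds a start region for 9 of the 10 members, all but Fosl1, and each sequence is the 250 bases upstream of the RefSeq start in build GRCm38.p6, read in the direction of transcription. Capitals mark the matches to the motifs named after the sequences. The windows are chr5:32136222-32136471 (plus strand) for Fosl2, chr12:85686470-85686719 (plus strand) for Batf, chr12:85473640-85473889 (plus strand) for Fos and chr1:191098164-191098413 (plus strand) for Batf3.

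Fosl2: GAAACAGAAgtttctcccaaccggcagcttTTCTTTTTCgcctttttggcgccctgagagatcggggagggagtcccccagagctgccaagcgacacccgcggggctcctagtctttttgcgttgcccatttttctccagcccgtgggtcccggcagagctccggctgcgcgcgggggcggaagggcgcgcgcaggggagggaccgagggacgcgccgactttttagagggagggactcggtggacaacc

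Batf: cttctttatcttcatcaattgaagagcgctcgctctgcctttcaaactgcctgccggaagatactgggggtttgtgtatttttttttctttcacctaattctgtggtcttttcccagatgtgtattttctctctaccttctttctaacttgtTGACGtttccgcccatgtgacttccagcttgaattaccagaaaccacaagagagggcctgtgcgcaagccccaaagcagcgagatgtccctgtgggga

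Fos: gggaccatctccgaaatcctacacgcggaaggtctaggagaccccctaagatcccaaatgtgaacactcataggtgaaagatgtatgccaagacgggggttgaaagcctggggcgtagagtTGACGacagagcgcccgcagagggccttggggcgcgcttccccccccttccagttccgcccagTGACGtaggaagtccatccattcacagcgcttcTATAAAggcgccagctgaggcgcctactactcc

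Batf3: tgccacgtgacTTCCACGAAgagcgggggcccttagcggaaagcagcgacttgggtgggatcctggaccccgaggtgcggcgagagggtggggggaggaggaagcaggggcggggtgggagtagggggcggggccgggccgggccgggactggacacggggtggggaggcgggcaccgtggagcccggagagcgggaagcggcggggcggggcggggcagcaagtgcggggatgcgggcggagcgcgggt

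Both strands were searched for the AP-1 element TGANTCA, the cyclic AMP element TGACGTCA and its core TGACG (which lies within it), the AP-1-like element TGACATCA of the Jun promoter, the serum response CArG box, the STAT element TTCNNNGAA, most of the NF-κB element (GGNNTTTCC), the IRF element GAAANNGAA and TATAAA. TGACATCA and TGACG were added after the sequences had been read, so their counts are a description and no independent evidence. TGANTCA, TGACGTCA, GGNNTTTCC and the CArG box were in none of the 9 windows. They were in 6.75%, 1.55%, 4.93% and 1.47% of 32817 RefSeq start windows of the same length. Only the 250 bases upstream of a start were searched, so sites further away would have been missed. Fos held TATAAA 33 to 28 bases upstream of its start, as 12.4% of all windows did at some position, and TGACG at 2 positions. TGACG was in 5 of the 9 windows (Fos, Fosb, Junb, Batf and Atf3), against 17.8% of all windows. In Fosl2 the capitals are IRF element matches, the first on the plus and the second on the minus strand, and this element was in 2 of the 9 windows (Fosl2 and Jund) against 7.12% of all windows. In Batf3 they are a STAT element match, found in 7.02% of all windows. In the Jun window TGACATCA lay 45 to 38 bases upstream (2.93% of all windows). The start of a GENCODE M21 transcript was found at the end of 7 of the 9 windows, all but Junb and Jund. The Batf window was 46.4% G or C, below the median window at 52.4%, and the Batf3 window was 76% G or C.

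With TL1A, the mRNA of Fosl2, Batf and Junb rose, and that of Fos and Batf3 fell. Of the 10 members, 8 had enough reads to be tested; 3 rose, 2 fell and 3 did not pass (edgeR quasi-likelihood test, Benjamini-Hochberg adjusted p under 0.05 over all 9852 genes tested). These 5 of 8 stand against a background of 42.3% of all tested genes called in either direction, with 20.6% called higher and 21.7% called lower. The median log2 fold change was 0.46 over the 8 tested members and -0.03 over all genes tested. Of the 8, 7 had groups whose libraries did not overlap, against 72.2% of all genes tested. Among these was Fosb, which reached the level of the low-count filter in the medium libraries alone, so that it had to differ to be tested. Without Fosb, the median log2 fold change of the members was 0.63, with 3 higher and 2 lower. With 2 libraries a group, the smallest p of an exact permutation test is 0.333, so each call rests on the spread pooled across genes.

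**Figure D1:**
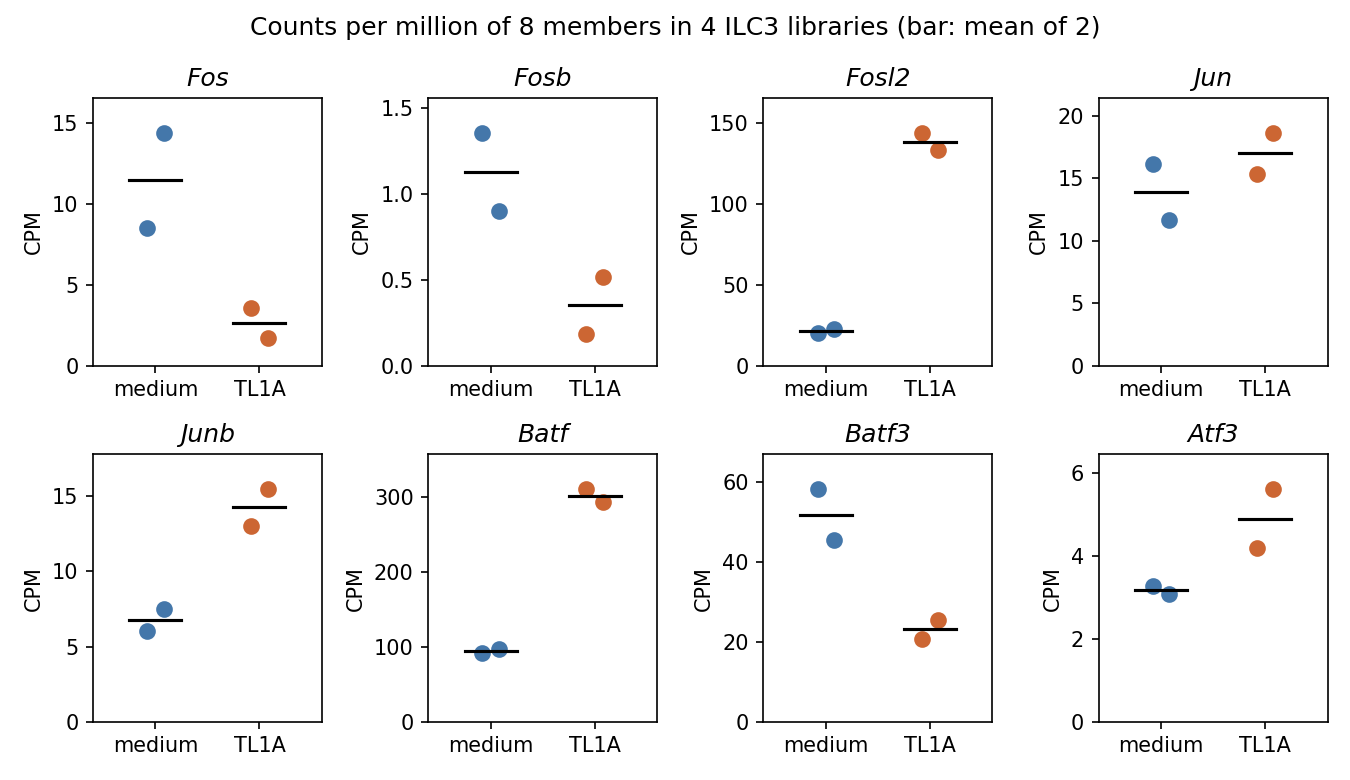
CPM (vertical axes, each starting at 0) of the 8 tested members in the 2 medium and 2 TL1A libraries, one panel per gene; points are libraries and bars are means. Fosl2, Batf and Junb lie higher and Fos and Batf3 lower in both TL1A libraries, while the libraries of Jun overlap.

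Fosl2, which encodes the Fos-related protein FRA-2, gave the largest change among the members. It had 20.1 and 22.5 CPM in the medium libraries and 143.8 and 133 CPM in the TL1A libraries. Both stimulated libraries lay far above both medium libraries, and the libraries within a group were close together. The change was 6.48-fold (log2 fold change 2.70, SE 0.12, edgeR adjusted p = 3.17e-06), and its size was above that of 95.5% of all genes tested. By CPM, which is not corrected for length, Fosl2 moved from rank 5274 to rank 1783 among the tested genes.

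No other Fos gene was called higher. Fos, the classical immediate early gene, had 107 and 192 reads in medium (8.52 and 14.4 CPM) and 38 and 20 reads with TL1A (3.53 and 1.72 CPM). The groups did not overlap, but the libraries within each group stood well apart. Fos was 4.38-fold lower with TL1A (log2 fold change -2.13, SE 0.41, edgeR adjusted p = 0.00474), and this log2 value became -2.72 when TL1A replicate 1 was left out and -1.67 when medium replicate 2 was.

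Fosb, a close relative of Fos, was thinly covered, by 17 and 12 reads in the medium libraries and by 2 and 6 in the stimulated ones. It passed the low-count filter through its medium libraries alone. Its log2 fold change was -1.63 (SE 0.69), with an unadjusted p of 0.0477 and an edgeR adjusted p of 0.0955, and it did not pass. Fosl1, which encodes FRA-1, had 1 read in 1 medium library and 0 in the other 3, and was not tested. In the RefSeq table it overlaps Ccdc85b, which has a deposited row of its own, so reads on the shared stretch may have been set aside as ambiguous and this count sets no limit on its mRNA. The summed level of the 4 Fos genes went from 30.02 and 37.9 CPM to 147.5 and 135.3 CPM, almost all of it Fosl2 in the stimulated cells. This sum is not corrected for length, and the long Fosl2 transcript (6537 bases, against 2108 for Fos) weighs more in it.

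The balance between Fosl2 and Fos shifted within each library. There were 2.36 and 1.57 Fosl2 reads for every Fos read in medium, and 40.7 and 77.2 with TL1A. These are ratios of reads, not corrected for the lengths of the transcripts, so only their change between libraries can be read.

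Among the Jun genes, which supply the partners of Fos and BATF proteins, Junb rose and Jun did not pass. Junb had 6.05 and 7.49 CPM in medium and 13 and 15.4 CPM with TL1A, on 76 to 179 reads. The groups were separate, and the rise was 2.1-fold (log2 fold change 1.07, SE 0.22, edgeR adjusted p = 0.00679).

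Jun had 16.2 and 11.7 CPM in medium and 15.3 and 18.6 CPM with TL1A. Its groups overlapped, since 1 medium library lay above 1 TL1A library. The log2 fold change was 0.29 (SE 0.22, edgeR adjusted p = 0.326), and the 95% confidence interval of the fold ran from 0.858 to 1.74, which includes no change and a rise of up to 1.74-fold. Per Jun read there were 0.374 and 0.641 Junb reads in medium, and 0.848 and 0.829 in the stimulated libraries.

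Jund could not be assessed. It has 2 deposited transcript rows, NM_001286944 and NM_010592, and both had 0 reads in every library. Reads that fell on several rows were set aside as ambiguous in the deposited counting, and of the 4984 genes with several rows, 44.4% had 0 reads throughout, against 38.3% of the genes with 1 row. The 0 of Jund therefore sets no limit on its mRNA. Each other member has 1 deposited row. The matched GENCODE M21 transcripts of Jun, Junb and Jund consist of 1 exon, while those of the other members have 3 or 4.

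The BATF genes, whose mRNAs had the highest levels among the 8 tested members per kilobase of transcript, moved in opposite directions. Batf had 91.3 and 97.4 CPM in medium and 310.3 and 292.5 CPM with TL1A. The libraries within a group nearly coincided, and the stimulated ones were both above 3 times the medium mean of 94.4 CPM. The rise was 3.19-fold (log2 fold change 1.67, SE 0.08, edgeR adjusted p = 5.43e-06), which carried Batf from rank 2375 to rank 740 of the tested genes by CPM.

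Batf3, known for its need in the development of cross-presenting dendritic cells, had 58.2 and 45.4 CPM in medium and 20.6 and 25.6 CPM with TL1A. Both stimulated libraries were below both medium libraries. Batf3 was 2.24-fold lower (log2 fold change -1.16, SE 0.18, edgeR adjusted p = 0.00172).

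The number of Batf reads per Batf3 read was 1.57 and 2.15 in medium and 15 and 11.4 after stimulation. The summed level of both genes rose from 149.5 and 142.8 CPM to 330.9 and 318.1 CPM, so the loss of Batf3 reads was smaller than the gain of Batf reads.

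Atf3, a stress-induced factor that pairs with Jun proteins and often acts as a repressor, had 3.26 and 3.07 CPM in medium and 4.19 and 5.6 CPM with TL1A, on 41 to 65 reads. The libraries of the groups did not overlap, but the log2 fold change of 0.63 (SE 0.31) did not pass (edgeR adjusted p = 0.144). The 95% confidence interval of its fold was 0.937 to 2.55.

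**Figure D2:**
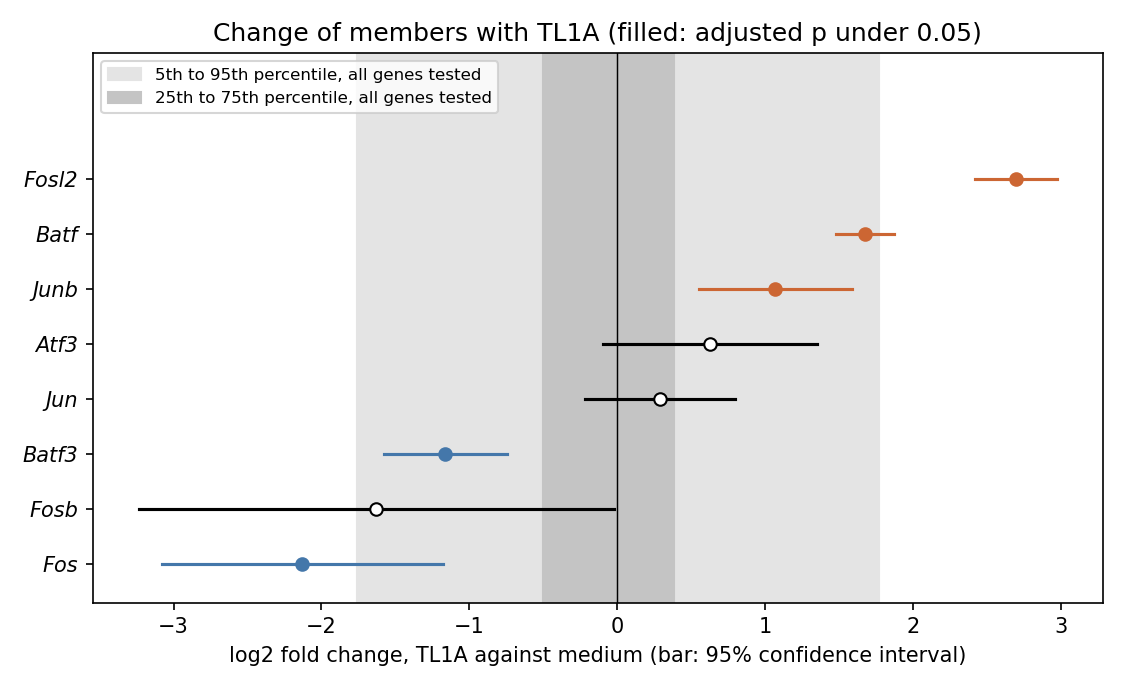
Log2 fold change of the 8 tested members, TL1A against medium (horizontal axis), with 95% confidence intervals as bars and filled points for an adjusted p under 0.05; grey bands give the central ranges of all 9852 genes tested. Fosl2 at 2.70 and Fos at -2.13 lie outside the 5th to 95th percentile of all genes (-1.76 to 1.77), and the intervals of Jun and Atf3 include 0.

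Levels of different members were compared per kilobase of the GENCODE transcript matched to each row, which may differ in length from the mm9 model that was counted. In medium, Batf at 98.8 ± 4.52 CPM per kilobase (SD, n = 2) and Batf3 at 64.7 ± 11.3 stood above the other tested members. Fos, Jun, Junb and Fosl2 followed at 5.43 ± 1.97, 4.37 ± 0.993, 3.74 ± 0.562 and 3.27 ± 0.259 CPM per kilobase, and the libraries of neighbours in this order overlapped. Atf3 (1.6 ± 0.0691) and Fosb (0.298 ± 0.0851) were lower, each apart from the one before.

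With TL1A the order of these length-corrected levels was Batf at 315.6 ± 13.1, Batf3 at 28.9 ± 4.38 and Fosl2 at 21.2 ± 1.16 CPM per kilobase, then Junb (7.86 ± 0.943), Jun (5.33 ± 0.727), Atf3 (2.47 ± 0.506), Fos (1.25 ± 0.607) and Fosb (0.093 ± 0.0619). No neighbours overlapped in the stimulated libraries. Fosl2 thus moved from the sixth to the third place and Fos from the third to the seventh.

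**Figure D3:**
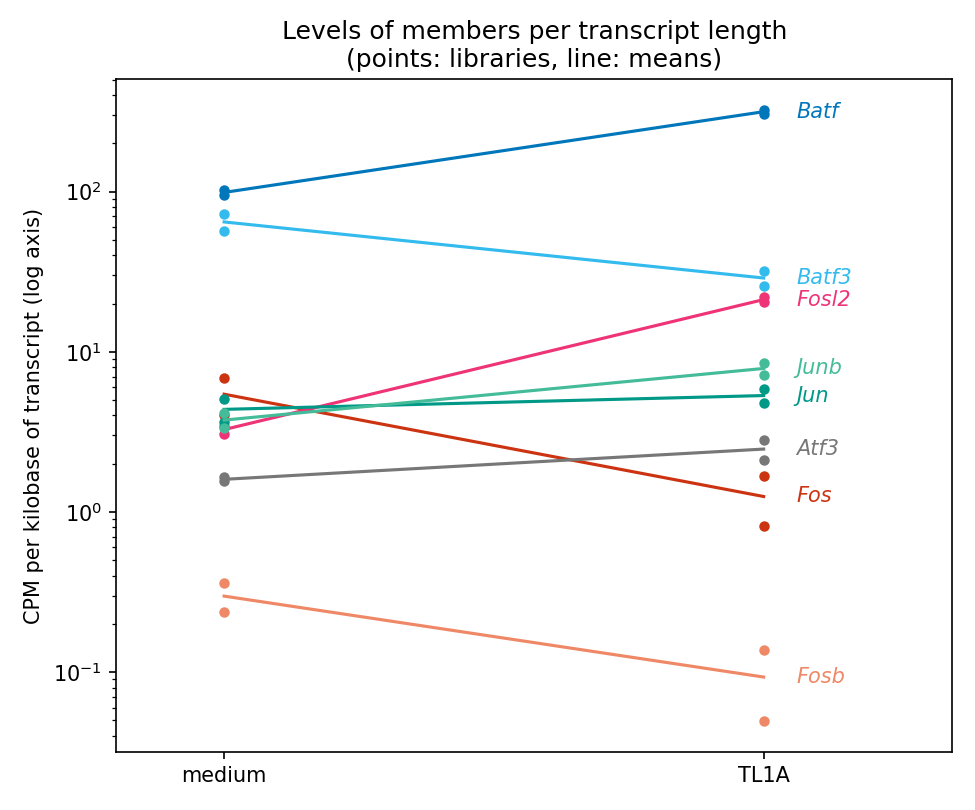
CPM per kilobase of transcript (logarithmic vertical axis) of the 8 tested members in medium and with TL1A; points are libraries and lines join the group means. Batf stays on top at 98.8 and 315.6, Fosl2 climbs from 3.27 to 21.2, and Fos and Batf3 go down.

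Some members lie close together on chromosomes, and these did not move as blocks. In the RefSeq gene table of GRCm38.p6, the genes with deposited rows on chromosome 12 run Tmed10, Fos, Jdp2, Batf, Flvcr2. Along this stretch Fos fell and Batf rose, and Tmed10 rose slightly (log2 fold change 0.28, SE 0.08, edgeR adjusted p = 0.0255). Jdp2, another bZIP gene, had 0 reads in all 3 of its rows, whose shared reads were not counted, so its 0 sets no limit. Flvcr2 had a log2 fold change of 0.25 (edgeR adjusted p = 0.65). On chromosome 1 only Fam71a, with 2 reads in all, lies between Batf3, which fell, and Atf3, which did not pass. The flanking genes here were named for their position.

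By the fixed rule, the 3 tested genes whose mean-centred log2 CPM (pseudocount 0.5) over the 4 libraries lay closest to Fosl2, the member with the smallest p, were Sqle (Euclidean distance 0.0926), Rptor (0.0951) and Nupr1 (0.0963). Rptor, which encodes the mTORC1 subunit raptor, had 64.5 and 66.8 CPM in medium and 423.7 and 414.3 with TL1A. Nupr1, which encodes a small stress-induced nuclear protein, had 135.2 and 147.9 CPM and then 983.1 and 937.6 CPM. With 4 libraries in 2 groups, such likeness reflects little more than a similar fold change.

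The other bZIP genes were called at a share near that of all genes. Of 34 listed, 33 had a row and 20 were tested; 2 rose, 7 fell and 11 did not pass, with a median log2 fold change of -0.02 against -0.03 over all genes tested. That is 45% called, with 10% higher and 35% lower, against 42.3%, 20.6% and 21.7% of all genes tested. Without TL1A replicate 1 the number lower was 4. Hlf, a circadian-type bZIP factor of the PAR family, had 29 and 27.2 CPM in medium and 5.3 and 6.12 with TL1A (log2 fold change -2.29, SE 0.18, edgeR adjusted p = 6.12e-05). Nfe2l2, which encodes the oxidative stress factor NRF2, fell by 0.60 on the log2 scale (SE 0.07), with means of 428.8 ± 12.8 in medium and 282.9 ± 9.72 CPM after stimulation (SD, n = 2), and Atf6, a sensor of endoplasmic reticulum stress, fell by 0.54 (SE 0.07). Maf, a factor of cytokine-producing lymphocytes, rose by 0.39 (SE 0.08). Batf2, the remaining BATF gene, named for its family, had 2.23 and 5.39 CPM in medium and 3.35 and 3.97 with TL1A, and its groups overlapped (edgeR adjusted p = 0.923). Xbp1 and Cebpb were at 0 reads in every library. Each has several deposited rows, whose shared reads were not counted, so their 0 sets no limit.

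Among kinases upstream of AP-1 and partner factors, the gene of IRF4 had the largest change of the 20 tested. Irf4 had 4.06 and 1.95 CPM in medium, on 51 and 26 reads, and 78.2 and 91.1 CPM with TL1A. Both stimulated libraries were many times above the medium ones (28.3-fold, log2 fold change 4.82, SE 0.28, edgeR adjusted p = 1.19e-05; log2 fold change 5.43 without medium replicate 1). Irf8, the gene of the alternative partner, had 1 to 4 reads per library over 2 deposited rows and was not tested. Reads shared by its rows were not counted, so this count sets no limit on Irf8 mRNA. Of the 28 listed genes, 20 were tested; 6 rose, 5 fell and 9 did not pass, with a median log2 fold change of 0.14. The share called was 55%, against 42.3% of all genes tested.

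Elk3, which encodes an ETS factor that binds with SRF, rose by 0.99 on the log2 scale (SE 0.12), with means of 61.9 ± 7.36 in medium and 123.1 ± 7.61 CPM after stimulation (SD, n = 2). Mef2c, whose product acts on the Jun promoter in other cells, fell to 6.44 ± 1.67 CPM against 29.8 ± 1.73 in medium. Elk3 and Mef2c each have 2 deposited rows, so their values leave out the reads that these rows share. Map3k8, which encodes the kinase TPL2 upstream of ERK, fell by 0.75 on the log2 scale (SE 0.10). The kinase genes of the list moved in both directions: Map2k1, Map2k4, Map2k6 and Rps6ka3 rose, while Mapk8 (the JNK1 gene), Map3k1, Map3k5 and Map3k8 fell.

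Genes known as targets of AP-1 or BATF in other cells were listed with earlier results of these data known, so their counts are a description and no independent evidence. Of 21 listed, 16 were tested; 11 rose, 3 fell and 2 did not pass (87.5% called, against 42.3% of all genes tested), with a median log2 fold change of 1.91 against -0.03 over all genes tested. Of these, 4 of the genes that rose (Mmp10, Cd44, Il2 and Tnf) reached the level of the low-count filter in the TL1A libraries alone, and Mmp9, which fell, in the medium libraries alone, so that they had to differ to be tested. Among the 11 others 7 rose and 2 fell, with a median of 1.01. Mmp10 had 0 reads in medium, and the median was the same with it set to its bound of at least 32.8-fold higher (against 3 counts over the medium group). Il2ra, the gene of the IL-2 receptor alpha chain, had 420.6 and 448.4 CPM in medium and 1927 and 1927 CPM with TL1A. Prdm1, which encodes the repressor Blimp-1, had 3.74 and 3.67 CPM before and 22 and 21 CPM after (log2 fold change 2.53, SE 0.20, edgeR adjusted p = 5.65e-05). Csf2, which encodes GM-CSF, had a log2 fold change of 6.91 (SE 0.07), also an increase. Cxcl2, a neutrophil chemokine gene, rose by 5.91 (SE 0.29), and by 6.77 with medium replicate 2 left out. Whether any AP-1 member acts on these genes was not measured.

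Because Fos, Jun and Atf3 are among genes that rise while cells are prepared, a list of heat shock and immediate early genes was read beside them. Of 18 listed, 17 were tested, and 8 rose, 2 fell and 7 did not pass. That is 58.8% called, against 42.3% of all genes tested, with a median log2 fold change of 0.67. The summed level of the list was 1623 to 1781 CPM in medium and 3455 to 4050 CPM with TL1A. Its rise was carried mainly by Nfkbia (means of 287.2 and 1456 CPM) and Klf6 (342.5 and 981.3 CPM). The medium libraries of Nfkbia stood apart, at 390.1 and 184.4 CPM. Zfp36, which encodes an mRNA decay factor, fell with Fos, from 169.7 and 192 CPM to 47.1 and 45.6 CPM (log2 fold change -1.96, SE 0.10, edgeR adjusted p = 7.41e-06). Egr1, picked here because its values were known, fell from 42 and 41 reads to 10 and 12 reads (log2 fold change -1.69, SE 0.40, edgeR adjusted p = 0.0126). Its call was lost with DESeq2 (adjusted p = 0.0724) and in edgeR when either medium replicate 1 (adjusted p = 0.0586) or TL1A replicate 1 (adjusted p = 0.0591) was dropped.

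In the other direction of that list, Ier3, an immediate early survival gene, reached 64.9 ± 1.39 CPM against 6.18 ± 0.0491 in medium (SD, n = 2). On the log2 scale Klf6 rose by 1.52 (SE 0.07) and the chaperone gene Hspa8 by 1.24 (SE 0.08). The heat shock genes Hspa1a and Hspa1b, near-identical copies also picked with their values known, had log2 fold changes of -1.05 and -1.33 and did not pass (edgeR adjusted p = 0.0615 and 0.0979). Reads with several alignments were not counted, so these values rest on the 4 to 41 reads a library that were assigned to 1 copy. Fos therefore fell in libraries in which several other immediate early genes rose and some fell, and the part of cell handling in these values was not tested.

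**Figure D4:**
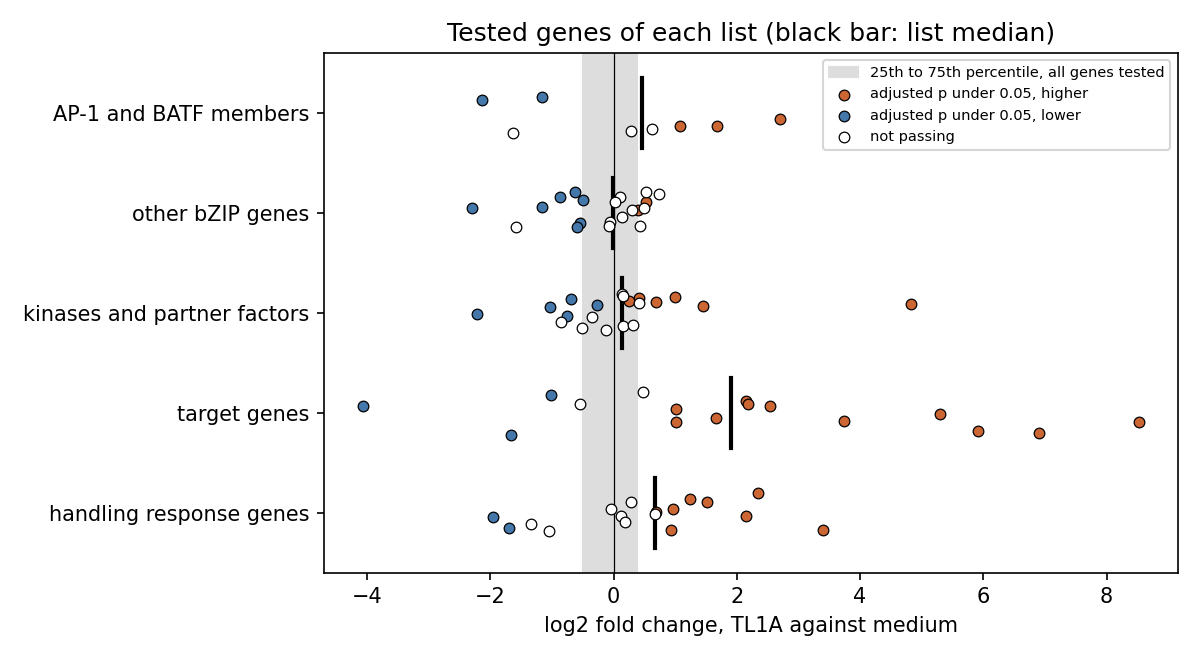
Log2 fold change, TL1A against medium (horizontal axis), of each tested gene in the 5 lists, coloured by call, with black bars for list medians and a grey band for the central range (25th to 75th percentile) of all genes tested. The target genes have a median of 1.91 and the other bZIP genes one of -0.02; the rightmost point, Mmp10, had 0 reads in medium and its fitted value depends on the prior count.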

How the data were processed

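RNA-seq libraries of sorted mouse ILC3s were compared, 2 in medium and 2 with TL1A. SMARTer chemistry for very small RNA inputs gave the cDNA, per the labels' protocols. Per the submitters' processing notes, CASAVA, STAR and HTSeq were used on genome build mm9; the sources used here give no versions, annotation release or strand setting. The authors deposited raw read counts per RefSeq transcript (33535 rows), and 5 HTSeq summary rows that name no gene (69.9% to 71.3% of a column) were left out. Reads set aside as ambiguous made up 33.7% to 34% of the reads on features. Genes with several rows are therefore undercounted, and their changes leave out the reads that their rows share.

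Rows were matched to symbols through the RefSeq table of GRCm38.p6 (33154 of 33535) and summed per gene. Tests used R 4.3.3 and edgeR 4.0.16 (minimum count of 10 in filterByExpr, TMM, glmQLFit, glmQLFTest, group as the only term, two-sided, Benjamini-Hochberg over 9852 genes). They were also run on counts simulated as independent libraries, which cannot show whether the deposited replicates are technical. The planned test between transcript rows of 1 gene gave nothing here, as 0 members had at least 2 rows past the filter. CPM values use effective library sizes. SE is the log2 fold change divided by the square root of F. The rule for named genes took all 10 members, up to 4 genes of each list with the smallest p, and the 3 genes nearest to the member of smallest p; all other genes in the text were named with their values known. The members and lists were chosen with earlier results of these data known. Some listed marker genes are not reported here. Alternatives used DESeq2 1.42.0 and limma-voom (limma 3.58.1), other scalings and filters, and left out each library.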

Additional observations from a re-analysis of the deposited data

How the results depend on the processing

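Each of the 8 tested members kept its direction and its side of the threshold under all 13 alternatives, so that 3 were higher and 2 lower throughout. These were RLE and upper quartile scaling, no low-count filter, DESeq2, limma-voom, the replicate block and a crossed block. The others were each library left out in turn, rows tested on their own and genes with 1 row only. Each tested member has 1 deposited row, so the last 2 used the same member reads and could hardly change a call. Over these alternatives Fos ranged from -2.72 to -1.67 on the log2 scale, Batf3 from -1.32 to -0.98, Junb from 0.92 to 1.26, Batf from 1.62 to 1.75 and Fosl2 from 2.61 to 2.81. Jun ranged from 0.10 to 0.53, Fosb from -2.52 to -1.10 and Atf3 from 0.41 to 0.83. Over all genes, 1596 to 1956 were higher and 1597 to 1822 lower with a library left out.

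In the other bZIP list the number lower was 4 to 6 with a library left out. In the handling list the number lower was 1 with DESeq2, and 1 to 2 with a library left out, by the call of Egr1.

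Replicate numbers recur across the titles, with no label on what they mark. With the replicate block 1736 genes were higher and 1806 lower, and it changed no call among the members. The deviations of same-numbered libraries from their group means correlated at -0.105 across genes, and with the crossed pairing, added after seeing the data, 2295 genes were higher and 2439 lower. Fosb, Fosl1 and Atf3 had at most 65 reads in a library; whether depth kept them from being called was not tested.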
